A study of Homo sapiens with 18 samples.

Results

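The 10 genes described here build and anchor the contacts between epithelial cells: CDH1, EPCAM, CLDN1, CLDN4, CLDN7, OCLN, TJP1, DSP, JUP and F11R. They were matched by symbol alone, and the list was chosen with earlier results of these data known. All 10 were found among the 44682 genes of the whole-cell table and among the 15747 genes of the table for cell fractions. With the GC7 reading explained below, CLDN7 and CLDN1 rose in cytoplasmic RNA, and CLDN7, CLDN1, OCLN, EPCAM and F11R rose in polysomal RNA. None of the 10 fell in a fraction, and none reached an unadjusted p under 0.05 in whole-cell RNA.

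Epithelial cells are sealed and held together by several kinds of junction. Tight junctions consist of claudins, occludin and junctional adhesion molecules, which scaffold proteins such as ZO-1 tie to actin, and they limit what passes between cells. Adherens junctions are built on E-cadherin, which links to actin through catenins, and desmosomes join neighbouring cells to keratin filaments through desmoplakin and plakoglobin. Carcinoma cells that lose E-cadherin, claudins and occludin often gain motility, a change known as epithelial-mesenchymal transition.

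DU145 is an established human line from a metastatic prostate carcinoma, so all values come from 1 line. Cells received 40 µM GC7, N1-guanyl-1,7-diaminoheptane, or vehicle only for 24 h. GC7 inhibits deoxyhypusine synthase, the enzyme that starts the modification of the translation factor eIF5A with hypusine. The study asked how blocking this modification changes mRNA abundance and the loading of mRNA onto ribosomes. RNA was sequenced from whole cells, from cytoplasm and from heavy polysomes (mRNA carrying many ribosomes), each with GC7 and with vehicle, which gives 6 groups of 3 libraries and 18 libraries in all. The protocol in the labels, the same for all libraries, adds emetine, which freezes ribosomes on mRNA, at 25 µg/ml for 10 min before lysis and removes nuclei and mitochondria before the gradients. Whether the libraries of a group came from separate cultures is not in the labels, so the spread behind the p-values may be technical.

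The values are the authors' tables of comparisons, without columns for single libraries. Library depth is therefore unknown, and no SD between libraries is given. Mean normalized counts summed to 29272958 in cytoplasm and 32579359 in polysomes over all genes in the authors' deposited table. Neither table names its numerator. Genes in the "UP" categories were taken to be higher with GC7, and all whole-cell values below carry the reverse of their deposited sign, because as deposited they correlated negatively with the fractions (Spearman -0.281 with cytoplasm and -0.37 with polysomes, across 14099 genes, which are not independent replicates). On the opposite reading every direction turns. Deposited fold changes in the fractions have been shrunken toward 0, so the text gives the log2 fold change before shrinkage, recovered from the deposited values, with its SE, and the adjusted p of the authors' deposited table. A gene is called, and is said to rise or fall, where that adjusted p is under 0.05. In bulk RNA, a change in the level per cell and a change in the share of cells that carry the RNA cannot be told apart.

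The label of an epithelial carcinoma was checked against marker genes. The keratins KRT8, KRT18, KRT19 and KRT7 had mean normalized counts of 4913 to 44854 in polysomes in the authors' deposited table, beside a median of 572 over all genes. Of the luminal prostate markers, KLK3, KLK2, TMPRSS2, FOLH1 and ACP3 stood at the whole-cell value of genes without reads. KRT5, KRT14 and TP63 of basal cells and all 4 endothelial markers were not among the genes of the fraction table. VIM, a mesenchymal filament, stood at 16943 in polysomes in the authors' deposited table, while FN1, COL1A1 and COL1A2 stood at 14.7 to 88.6.

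CLDN7, the junction gene with the largest recovered change, carried several copies of a short promoter element, shown here for that reason. The letters CAGGTG, whose reverse complement is CACCTG, form an E-box of the kind bound by repressors of the SNAIL and ZEB families. They were searched on both strands in RefSeq promoters (assembly GRCh38.p14, 250 bases before to 50 after each start). The table held 13 promoters for 7 of the genes, and CDH1, EPCAM and F11R had no entry. For CLDN7, on the minus strand of chromosome 17, the letters occurred 5 times in the promoter of its start 2 and 0 times in that of its start 1. Each line below gives 30 bases on the gene's strand with the matched letters in capitals. Positions count from 1 at the start, here start 2, with no 0.
CLDN7 at -174, chr17:7262647-7262652: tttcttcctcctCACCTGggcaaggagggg
CLDN7 at -135, chr17:7262608-7262613: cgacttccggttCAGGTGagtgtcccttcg
CLDN7 at -20, chr17:7262493-7262498: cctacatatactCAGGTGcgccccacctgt
CLDN7 at -9, chr17:7262482-7262487: tcaggtgcgcccCACCTGtccgcccgcacc
CLDN7 at 6, chr17:7262468-7262473: cctgtccgcccgCACCTGctggctcacctc
The last 3 windows overlap each other, so they show the same bases more than once. Of 35116 promoters of this length in the RefSeq table, 20.6% held the letters at least once and 0.094%, or 33 promoters, held them at least 5 times.

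OCLN, which also rose in polysomes, had the letters once in the promoter of its start 1 and 2 times in that of its start 2, on the plus strand of chromosome 5. The OCLN windows are shown for comparison with CLDN7.
OCLN start 1 at -33, chr5:69492514-69492519: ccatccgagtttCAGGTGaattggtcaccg
OCLN start 2 at -133, chr5:69492657-69492662: tctaggacgcagCAGGTGggactcgcggcg
OCLN start 2 at 36, chr5:69492825-69492830: cggtcggtgcggcgtCAGGTGcgcccgcca
Whether the letters go with the calls was not tested, and EPCAM and F11R, which rose in polysomes, had no entry. CLDN1 rose in both fractions and had none in its promoter, while DSP and JUP, which were not called, had 2 each in 1 promoter. Of the other genes not called, TJP1 had the letters once in 1 promoter and CLDN4 had none. In all, 6 of the 13 promoters held the letters. The letters TGATGNAA, an element through which ATF4 and its partners act in amino acid stress, were in 3.62% of all promoters and in none of the 13. A match is a description of letters, not a site of binding, and a missing match covers this window only.

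**Figure D1:**
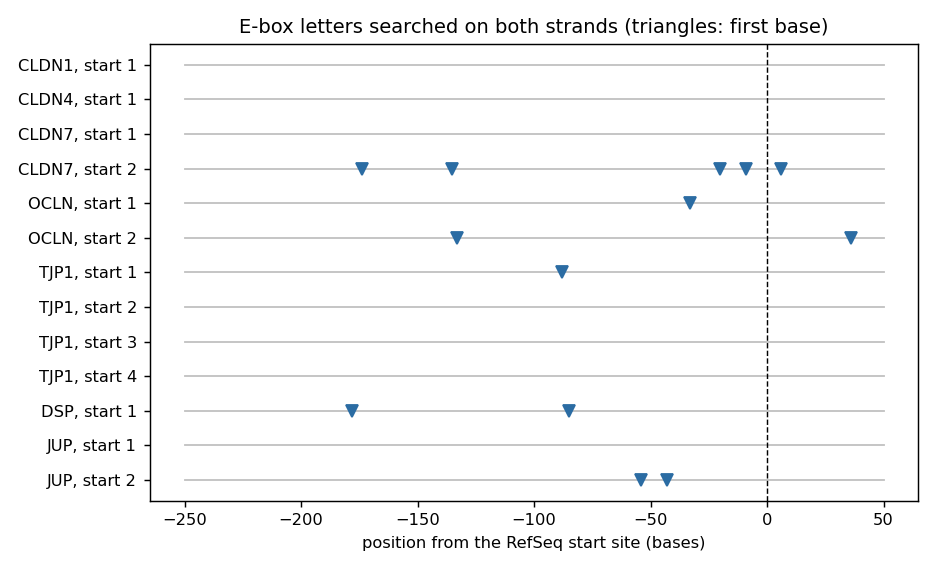
Triangles mark the first base of each CAGGTG or CACCTG in the 13 RefSeq promoters of 7 junction genes, along the distance from the start site in bases (dashed line). CLDN7 start 2 carries 5 matches, of which 3 lie between -20 and 6.

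A second set of sequences is shown because ribosomes pause at runs of prolines and eIF5A with hypusine is known to help them past. Coding sequences of canonical GENCODE v44 transcripts were searched for at least 3 proline codons (CCN) in a row. Of 12845 genes of the fraction table with a coding sequence, 26.3% had such a run, and so had 4 of the 10 junction genes. Runs of these 4 genes are shown in capitals within 4 codons on each side, read along the mRNA.
CDH1 codons 125 to 127: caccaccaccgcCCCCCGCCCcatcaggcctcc
OCLN codons 9 to 11: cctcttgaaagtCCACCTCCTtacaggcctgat
TJP1 codons 1426 to 1430: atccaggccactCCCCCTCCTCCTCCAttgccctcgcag
TJP1 codons 1475 to 1477: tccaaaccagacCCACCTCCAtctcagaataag
DSP codons 513 to 515: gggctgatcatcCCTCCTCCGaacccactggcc
EPCAM, CLDN1, CLDN4, CLDN7, JUP and F11R had no run of this length. TJP1 had 3 runs, of which the longest spans 5 codons, and 2 of the 3 are shown.

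Claudins are 4-pass membrane proteins that form the strands of the tight junction and set which ions cross it, and 2 of the 3, CLDN7 and CLDN1, were called in both fractions. CLDN7 (chr17:7259903-7263983, minus strand, 4 exons) rose in cytoplasm by 1.12 ± 0.24 (log2 fold change ± SE), which is 2.18-fold with a 95% interval of 1.56 to 3.04. The adjusted p of CLDN7 in cytoplasm was 0.000487 in the authors' deposited table, which files it under its category for genes up in cytoplasm. In polysomes CLDN7 rose by 0.73 ± 0.13, or 1.66-fold with an interval of 1.38 to 1.98, and the authors' deposited table gives an adjusted p of 4.35e-06. In whole cells CLDN7 stood at 1.07 by the authors' deposited table, at an unadjusted p of 0.0714. CLDN7 thus had the highest value of the 10 genes in each of the 3 comparisons, and its whole-cell value was not called.

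CLDN7 overlaps ELP5, a subunit gene of the Elongator complex, on the opposite strand, and whether counting used strand is not given in the sources used here. ELP5 stood at -0.36 ± 0.31 in cytoplasm and -0.16 ± 0.16 in polysomes, with neither called. A gene model without a symbol also overlaps CLDN7 on its own strand. Reads of CLDN7 and ELP5 cannot be told apart without strand, so the values of CLDN7 are uncertain to that extent, and both values of ELP5 were below 0. The whole-cell table also lists a numbered copy of CLDN7, which reached 1.15 at an unadjusted p of 0.0471 by the authors' deposited table (adjusted p = 0.953, Benjamini-Hochberg over all genes).

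CLDN1 (chr3:190305707-190322446, minus strand, 4 exons), a sealing claudin, rose in both fractions by similar amounts. Its cytoplasmic log2 fold change was 0.56 ± 0.15, or 1.48-fold with an interval of 1.21 to 1.81, and its polysomal one was 0.49 ± 0.14, with an interval of 1.16-fold to 1.69-fold. The adjusted p-values of CLDN1 in the authors' deposited table were 0.00703 and 0.00855. In whole cells CLDN1 was at 0.69 by the authors' deposited table (unadjusted p = 0.398).

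CLDN4 (chr7:73799542-73832690, plus strand, 1 exon in the canonical transcript), another sealing claudin, was not called in any comparison. It stood at 0.16 ± 0.42 in cytoplasm and 0.17 ± 0.17 in polysomes, with intervals of -0.66 to 0.97 and -0.15 to 0.50. The mean normalized count of CLDN4 in cytoplasm, 172.9 in the authors' deposited table, was the lowest of the 10 genes, and its SE there was the widest. The cytoplasmic interval of CLDN4 holds the value of CLDN1, so these 2 claudins are not shown to differ in cytoplasm. For CLDN4 the authors' deposited table gives 0.02 in whole cells (unadjusted p = 0.95).

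OCLN and F11R, 2 further membrane proteins of the tight junction, rose in polysomes and were not called in cytoplasm. Occludin, OCLN (chr5:69492292-69558104, plus strand, 9 exons), regulates the barrier together with the claudins and had a polysomal log2 fold change of 0.68 ± 0.17, or 1.60-fold with an interval of 1.26 to 2.03. In cytoplasm OCLN was at 0.54 ± 0.22. For OCLN the authors' deposited table gives an adjusted p of 0.00278 in polysomes and 0.174 in cytoplasm. The value for OCLN in whole cells was 0.46 by the authors' deposited table (unadjusted p = 0.71). OCLN has a close copy, the pseudogene OCLNP1, with which reads can be shared, so its values carry that uncertainty.

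F11R (chr1:160995211-161021343, minus strand, 10 exons) encodes junctional adhesion molecule A, an immunoglobulin-like protein that recruits polarity proteins to the junction. F11R rose in polysomes by 0.53 ± 0.16, or 1.44-fold with an interval of 1.15 to 1.80, at an adjusted p of 0.0182 in the authors' deposited table. Its cytoplasmic value was 0.39 ± 0.24, which the authors' deposited table lists at an adjusted p of 0.438. In whole cells F11R stood at 0.46 by the authors' deposited table (unadjusted p = 0.39). A second gene model on the same strand overlaps F11R, so its reads can be shared as well.

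TJP1 (chr15:29699367-29968915, minus strand, 28 exons) encodes ZO-1, the scaffold that ties claudins, occludin and junctional adhesion molecules to actin. TJP1 was at 0.43 ± 0.27 in cytoplasm and 0.24 ± 0.19 in polysomes, with adjusted p-values of 0.448 and 0.515 in the authors' deposited table, and was not called. Its whole-cell value of -0.04 by the authors' deposited table, had an unadjusted p of 0.949. The scaffold thus had no call in any comparison, while 4 of the 5 membrane proteins of the tight junction rose in polysomes. Whether TJP1 differs from those 4 was not tested, and its polysomal interval of -0.14 to 0.61 holds the values of CLDN1 and F11R.

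EPCAM (chr2:47345158-47387601, plus strand, 9 exons) encodes an adhesion and signalling protein of epithelia that binds claudin-7 and is cut by the protease ADAM17. EPCAM rose in polysomes by 0.68 ± 0.18, or 1.60-fold with an interval of 1.25 to 2.04, at an adjusted p of 0.00408 in the authors' deposited table. In cytoplasm EPCAM was at 0.45 ± 0.20, where the authors' deposited table gives an adjusted p of 0.227. Its whole-cell value pointed the other way, at -0.27 by the authors' deposited table, but the unadjusted p was 0.629.

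CDH1 (chr16:68737292-68835537, plus strand, 16 exons) encodes E-cadherin, the adhesion receptor of the epithelial adherens junction. CDH1 was not called in any comparison. Its polysomal log2 fold change was 0.61 ± 0.25, or 1.53-fold with an interval of 1.09 to 2.15, and the authors' deposited table gives an unadjusted p of 0.0143 and an adjusted p of 0.0994. In cytoplasm CDH1 was at 0.42 ± 0.27 (adjusted p = 0.466 in the authors' deposited table). In whole cells CDH1 had the lowest value of the 10 genes, -0.80 by the authors' deposited table, at an unadjusted p of 0.477. The size of its polysomal value was close to those of EPCAM and OCLN, but its SE was wider.

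The desmosomal genes had the values nearest to 0 in polysomes. DSP (chr6:7541338-7586714, plus strand, 24 exons) encodes desmoplakin, which anchors keratin filaments to the desmosome, and stood at 0.41 ± 0.27 in cytoplasm and 0.08 ± 0.18 in polysomes. JUP (chr17:41754604-41786931, minus strand, 14 exons) encodes plakoglobin, a catenin shared by desmosomes and adherens junctions, and stood at -0.19 ± 0.16 in cytoplasm and 0.03 ± 0.22 in polysomes. Neither gene was called, with adjusted p-values of 0.494 to 0.965 in the authors' deposited table over both genes and both fractions. In whole cells, DSP was at -0.53 (unadjusted p = 0.318) and JUP at -0.21 (unadjusted p = 0.644) by the authors' deposited table. The polysomal intervals reached 0.43 for DSP and 0.46 for JUP, so a rise as large as the recovered 0.49 of CLDN1 lay outside both. The interval of CLDN1 itself, 0.21 to 0.76, overlaps both, and whether these genes differ from CLDN1 was not tested. DSP overlaps an antisense gene, DSP-AS1, with which its reads can be shared if counting did not use strand.

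**Figure D2:**
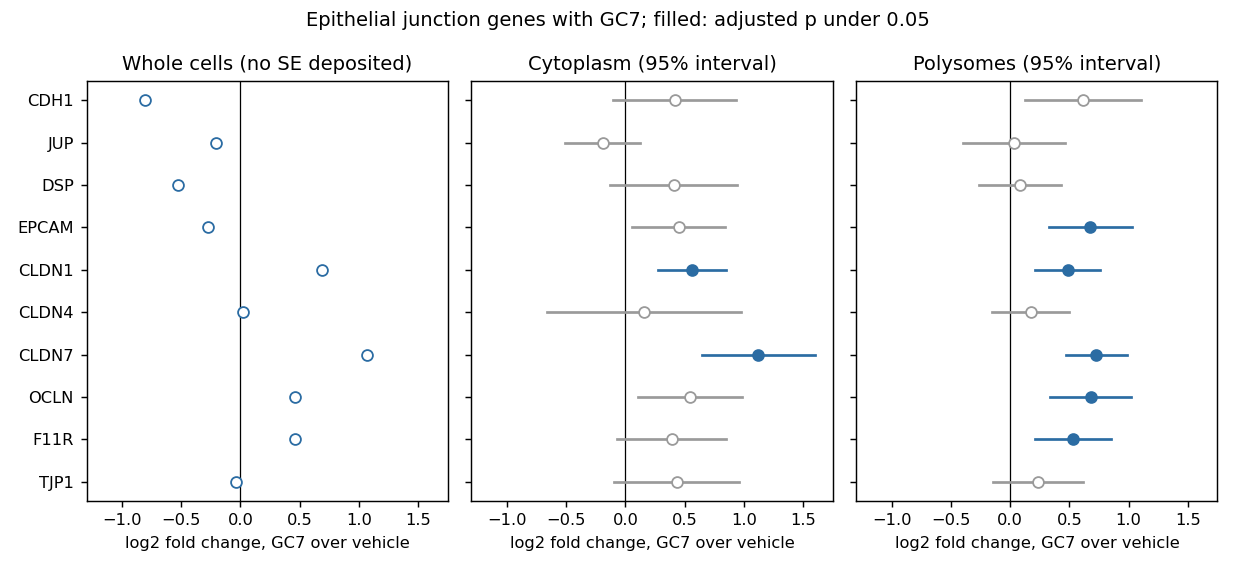
Points give the log2 fold change of each junction gene with GC7 in whole cells (as deposited, sign reversed, no SE) and in cytoplasm and polysomes (before shrinkage, bars are 95% intervals), and filled points have an adjusted p under 0.05. CLDN7 and CLDN1 are filled in cytoplasm, and CLDN7, OCLN, EPCAM, F11R and CLDN1 in polysomes.

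Counted together, 2 of the 10 genes rose in cytoplasm and 0 fell, where 2.29% of all genes rose and 1.95% fell. In polysomes 5 of the 10 rose and 0 fell, beside 5.61% and 5.48% of all genes. The recovered log2 fold change was above 0 for 9 of 10 genes in cytoplasm (all but JUP), with a median of 0.42, and for 10 of 10 in polysomes, with a median of 0.51. Over all genes the medians were -0.01 in each fraction, and 48.7% and 48.5% of genes were above 0. In whole cells 0 of the 10 reached an unadjusted p under 0.05, where 1.66% of all genes were higher and 1.33% lower, and no gene passed Benjamini-Hochberg adjustment of the p-values of the authors' deposited table over all 44682 genes (smallest adjusted p = 0.642). There 5 of the 10 were above 0 and their median was -0.01, beside -0.04 over the 14099 genes in both tables. These counts describe a list of genes chosen for their function, with earlier results of these data known, and the list was not tested.

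Few neighbours in the order of change lay further apart than their combined SE, and these gaps were not tested. In the cytoplasmic order from CLDN7 down to JUP, the gap of 0.56 between CLDN7 and CLDN1 exceeded the combined SE of the pair, 0.29, and no other gap between neighbours exceeded its combined SE. In polysomes the order was CLDN7, OCLN, EPCAM, CDH1, F11R, CLDN1, TJP1, CLDN4, DSP and JUP. There the gap of 0.25 between CLDN1 and TJP1 exceeded its combined SE of 0.24, and no other neighbouring gap did. A gap so near its combined SE does not set the genes above it apart from those below. The 6 upper genes of the polysomal order, CDH1 among them, ran from 0.73 down to 0.49.

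Whether ribosome loading moved apart from mRNA level was tested as the polysomal minus the cytoplasmic log2 fold change, before shrinkage. None of the 10 genes passed, with 0% of 15669 genes passing adjustment and 2.14% at an unadjusted p under 0.05. None of the 10 was at an unadjusted p under 0.05 either, and with errors taken as correlated at 0.5 between fractions 20 genes passed, none of them among the 10. The median difference over the 10 was 0.08, beside 0.01 over all genes. CLDN7 had the lowest value, -0.40 ± 0.28, with an interval of -0.94 to 0.15 and an unadjusted p of 0.154, computed from the fold changes and SEs recovered from the authors' deposited table. EPCAM had the highest, 0.23 ± 0.27, with an interval of -0.30 to 0.75. For OCLN and F11R, called in polysomes alone, the differences were 0.13 ± 0.28 and 0.14 ± 0.29, so their response is not shown to differ between the fractions. CLDN1 had the narrowest interval of the 10, -0.48 to 0.32.

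**Figure D3:**
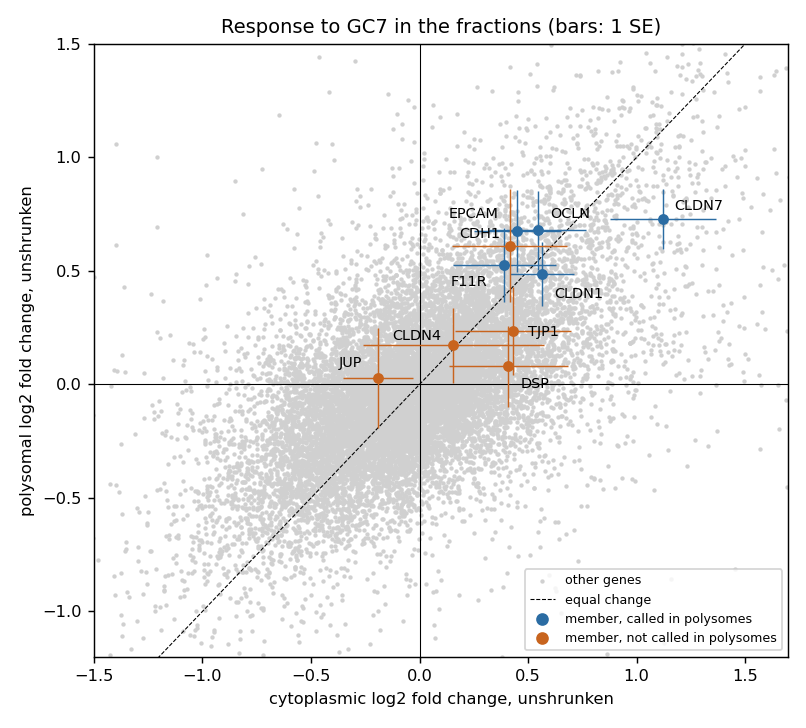
Each grey point is a gene of the fraction table at its log2 fold change before shrinkage in cytoplasm and polysomes, within the range of the axes, and coloured points with bars of 1 SE are the 10 junction genes. Called genes in polysomes (blue) lie between 0.49 and 0.73 on the polysomal axis, and JUP is the 1 junction gene left of 0 on the cytoplasmic axis.

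The difference between fractions was set beside the proline runs shown above. Among the 4 genes with a run it ranged from -0.33 (DSP) to 0.20 (CDH1), and among the 6 without from -0.40 (CLDN7) to 0.23 (EPCAM). The ranges overlap. TJP1, with 3 runs, stood at -0.20 ± 0.33, an interval of -0.84 to 0.45. Of the 5 genes that rose in polysomes, OCLN carries a run and the other 4 do not. Over all genes with a coding sequence the median difference was 0.050 with a run (3370 genes) and -0.0048 without (9457 genes). The median polysomal log2 fold change was -0.018 with a run and -0.017 without, and the cytoplasmic one was -0.058 and -0.010. The medians thus lay apart in cytoplasm and not in polysomes. Genes with a run were longer, with a median coding length of 2043 against 1248 bases.

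The levels of the 10 genes differed far more than their responses. As normalized CPM per kilobase of coding sequence, with both treatments pooled, F11R had the highest level in polysomes, 259, and DSP the lowest, 1.04, a 248-fold range. Between them came CLDN1 at 164, CLDN7 at 60.4, EPCAM at 26.6, CLDN4 at 22.7, JUP at 18.6, OCLN at 9.85, TJP1 at 6.13 and CDH1 at 3.10. The median of 12845 coding genes was 15.7 on the same scale. The tables give 1 mean per fraction, so these levels carry no error, and untranslated regions are not in the length.

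In cytoplasm the levels in CPM per kilobase ran in a similar order, from 150 for F11R and 130 for CLDN1 to 4.34 for CDH1 and 1.71 for DSP. CLDN7 was at 34.9, EPCAM at 28.0, JUP at 24.4, TJP1 at 11.7, OCLN at 9.38 and CLDN4 at 9.37, beside a median of 12.2 over coding genes. The polysomal level divided by the cytoplasmic level was 2.43 for CLDN4, 1.73 for CLDN7, 1.73 for F11R and 1.26 for CLDN1. It was 1.05 for OCLN, 0.951 for EPCAM, 0.760 for JUP, 0.715 for CDH1, 0.609 for DSP and 0.526 for TJP1, with a median of 1.29 over coding genes. The 4 genes with the lowest ratios have the longest coding sequences of the 10 (2238 to 8616 bases), and the 4 with the highest have coding sequences of 630 to 900 bases. Each fraction was normalized by itself, so a ratio is read against the median and not as an absolute share on polysomes.

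**Figure D4:**
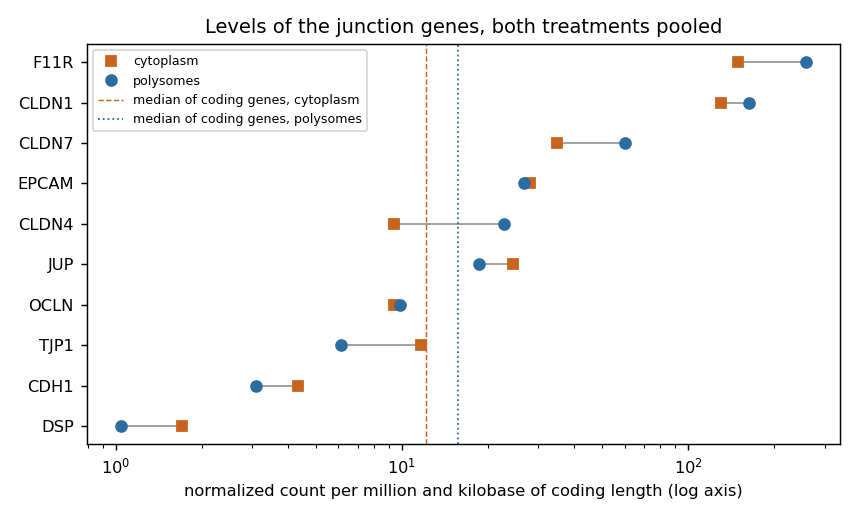
Squares (cytoplasm) and circles (polysomes) give each junction gene's normalized CPM per kilobase of coding length, both treatments pooled, on a log axis, with vertical lines at the medians of coding genes. F11R, CLDN1, CLDN7, EPCAM and JUP lie above the median of each fraction, and DSP and CDH1 are the lowest.

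The partners of these proteins were followed as 8 lists of related genes, in which 70 genes were measured in the fractions and 10 of them were called in polysomes. Among all genes 5.61% rose and 5.48% fell there. With both directions counted together the share called in the lists is near that of all genes, but more of the 10 rose than fell. This split was not tested. In cytoplasm, where 2.29% of all genes rose and 1.95% fell, no list had more than 2 calls. Among 10 adherens junction partners, 1 rose in polysomes and 0 were called in cytoplasm. This was CDH3, P-cadherin, a cadherin of basal epithelia, at 0.66 (adjusted p = 0.0151 in the authors' deposited table), and the list's polysomal median was 0.02. Among 9 other desmosome proteins, 1 rose in polysomes, PPL, periplakin, a linker to keratin filaments, at 0.64 (adjusted p = 0.0229 in the authors' deposited table). All 9 were above 0 in polysomes, with a median of 0.48, which is higher than the values of DSP and JUP, yet 8 of the 9 were not called. No connexin, the channel proteins of gap junctions, was called among 4.

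Of 10 other tight junction membrane proteins, 1 rose in cytoplasm and 0 were called in polysomes, where the median was 0.16. The riser was CLDN11, a claudin known from myelin and testis, at 0.98 in cytoplasm (adjusted p = 0.0320 in the authors' deposited table). In whole cells ILDR1, a protein of tricellular junctions, was higher at 2.29 by the authors' deposited table (unadjusted p = 0.0260), and it is not among the genes of the fraction table. Among 15 plaque and polarity proteins, 3 rose and 1 fell in polysomes, around a median of 0.02. PARD6A and PARD3, subunits of the polarity complex that F11R recruits, rose by 0.84 and 0.49, with adjusted p-values of 0.000389 and 0.00640 in the authors' deposited table. MAGI3, a scaffold, fell by 0.63 and TJP3, the ZO-3 scaffold, rose by 0.76, with adjusted p-values of 0.0116 and 0.0245 in the authors' deposited table. PARD6A was the 1 gene of this list called in cytoplasm, at 0.60 (adjusted p = 0.0311 in the authors' deposited table).

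Among the proteases and inhibitors around EPCAM, ADAM17 and SPINT1 rose in polysomes. ADAM17, the protease that sheds EPCAM, rose by 0.71 in polysomes and 0.46 in cytoplasm, with adjusted p-values of 0.000270 and 0.0425 in the authors' deposited table. SPINT1, an inhibitor of the protease matriptase, rose by 0.65 in polysomes (adjusted p = 0.0266 in the authors' deposited table). These were the 2 genes of this list of 8 that rose in polysomes, and ADAM17 was the 1 that rose in cytoplasm.

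Regulators of epithelial genes gave few calls. Of 9 measured activators, 1 rose in each fraction, ESRP1, a splicing factor of epithelial cells, at 1.18 in cytoplasm and 0.98 in polysomes, with adjusted p-values of 0.00282 and 0.00656 in the authors' deposited table. In whole cells, at an unadjusted p under 0.05, the transcription factor GRHL3 and ESRP1 were higher, at 2.42 and 1.56, and EHF was lower, at -2.03, by the authors' deposited table. ESRP2, a second splicing factor, was also lower there, at -1.04 by the authors' deposited table. The ESRP pair thus had opposite signs in whole cells, and ESRP2 was not called in a fraction. GRHL3 and EHF were not called in a fraction either. Their mean normalized counts in cytoplasm were low in the authors' deposited table, 13.1 and 14.4, beside a median of 401 over all genes. Of 5 measured repressors of CDH1 (SNAI1, SNAI2, ZEB1, TWIST2 and TCF3), 0 were called in any comparison.

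**Figure D5:**
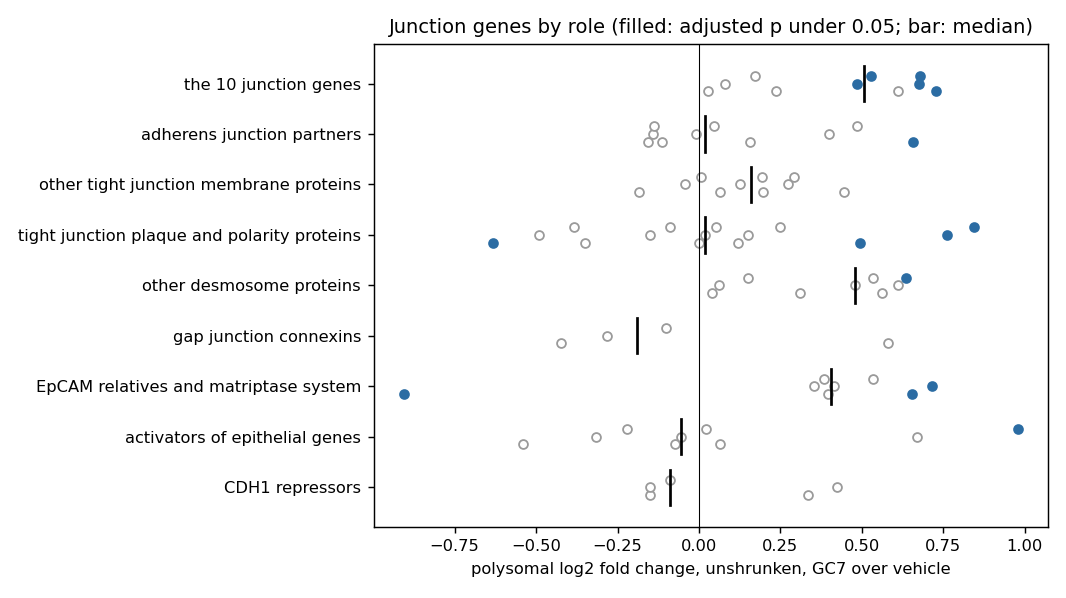
Each point is a gene's polysomal log2 fold change before shrinkage, in rows for the 10 junction genes and 8 lists of related genes, filled where the adjusted p is under 0.05, with a bar at the row's median. The junction genes have 5 filled points and a median of 0.51, and the row of other desmosome proteins has a median of 0.48.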

How the data were processed

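Per the labels, RNA of DU145 cells was sequenced in 6 groups of 3 libraries. The submitters' processing notes name STAR 2.7.8a, Salmon 1.4.0 and GRCh38, and which tool made which table is not given in the sources used here. Per the file headers, the authors' whole-cell table holds 1 log fold change per gene, whose values fit log2, and its p-value without adjustment. Per the file headers, the authors' fraction table holds a mean normalized count (pooled over treatments), the log2 fold change and SE, p-values before and after adjustment, and a category. Depth per library is unknown, so precision rests on the deposited SE and p-values.

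The 10 genes, the 8 lists and the tests were chosen with earlier results of these data known, and several lists follow the same pathways as the 10 genes. Of each list and comparison, up to 3 called genes with the smallest p were named (in whole cells, those at an unadjusted p under 0.05). Symbols were matched exactly, with PALS1 found as MPP5 in the fraction table.

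Fold changes before shrinkage were recovered by assuming a Cauchy prior (scale 0.195 in cytoplasm, 0.205 in polysomes on the natural log scale) and matching the deposited p-values. The recovered z came within 0.1 of the deposited one for 97.4% of genes in cytoplasm and 99.5% in polysomes. In all 78 genes missed it by over 0.5 and were not used, which leaves 15669. The difference between fractions was tested two-sided with a normal test on these values, errors taken as independent, and Benjamini-Hochberg adjustment over all 15669 genes. Steps were tested on simulated data. There the test of the difference called 33% of genes changed by a log2 of 1 and 81% of those changed by 2. A difference of 1 or less can thus be missed. Levels are the mean normalized count scaled to CPM over the fraction's sum and divided by kilobases of coding sequence. Coordinates and coding sequences are of GRCh38 with GENCODE v44, and promoters are of RefSeq. Proline runs were counted as codons in coding sequences, in place of the planned RefSeq proteins. Python 3.11.15, numpy 2.4.6, pandas 2.3.3, scipy 1.17.1 and matplotlib 3.10.9 were used. Other thresholds, adjustments, filters and centrings were tried, and 4 alternatives were added after the data had been seen. The 5099 numbered copies of symbols in the whole-cell table were not counted as the 10 genes. Some results are not reported here because they concern withheld items, and list counts in the text may include such genes.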

Additional observations from a re-analysis of the deposited data

How the results depend on the processing

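Across the alternatives run, 94 values stayed the same and 9 moved. For the fold change of a single gene, staying the same meant keeping the direction, with no threshold checked. For its difference between fractions it also meant not passing adjustment. For counts it meant lying within 1.5 times the main count. The range of levels was labelled as moved without such a rule. All 80 alternatives on the value of a single junction gene kept its direction, but many of them could not do otherwise. Removing the shrinkage keeps the sign, and correlated errors or the filter on means leave the difference between fractions unchanged. The 80 therefore say little about robustness. The count of junction genes called in cytoplasm, 2, was 1 with Benjamini-Yekutieli adjustment, 1 by the authors' category, which also asks for a log2 fold change over 1, and 1 without OCLN, F11R and CLDN7, chosen for a close copy or an overlapping gene (CDH1, EPCAM and TJP1, which overlap small RNAs, pseudogenes or models without a symbol on their strand, were kept). The polysomal count, 5, was 3 with Benjamini-Yekutieli, 0 by the authors' category, 2 without those 3 genes and 4 at an adjusted p under 0.01. With the numbered copies of symbols the whole-cell count was 1 in place of 0. In the lists, 10 calls in polysomes became 5 at an adjusted p under 0.01. Without division by length, the highest polysomal level was 28.3 times the lowest in place of 248. The numbered copies, the list threshold and the counts without 3 genes were tried after seeing the data, and the moves of the planned call counts follow from their stricter rules.

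In the difference between fractions none of the 10 genes passed under any setting, with smallest unadjusted p-values of 0.0613 (errors correlated at 0.5) to 0.255 (deposited shrunken values), each for CLDN7. No paired analysis was possible because the tables hold comparisons and no values of single libraries, and leaving out each replicate in turn was not run for the same reason. The SE limits what can be seen: for CLDN4 in cytoplasm the 95% interval spans -0.66 to 0.97.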

Other observations

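Keratins, the filament proteins to which desmosomes attach, were read as markers of the cell type. For those given here the polysomal minus cytoplasmic differences were positive, but none passed adjustment, so a gap between the fractions is not shown. KRT7 rose in polysomes by 1.09 ± 0.22 (adjusted p = 5.29e-05 in the authors' deposited table) and was at 0.40 ± 0.46 in cytoplasm. KRT8 stood at -0.64 ± 0.25 in cytoplasm and 0.14 ± 0.22 in polysomes, a difference of 0.78 ± 0.33 with an unadjusted p of 0.0179 that did not pass adjustment over all genes. For KRT18, KRT19 and KRT7 the differences were 0.82 ± 0.42, 0.74 ± 0.39 and 0.70 ± 0.51, and none passed. VIM, the mesenchymal filament, stood at -0.02 ± 0.25 in cytoplasm and 0.52 ± 0.22 in polysomes, with neither called. These genes were singled out after their values were seen.

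EPCAM-DT, a transcript that runs divergently from the EPCAM start, rose in cytoplasm by 1.46 ± 0.46 (adjusted p = 0.0396 in the authors' deposited table), at a low mean normalized count of 25.8 in the authors' deposited table. In polysomes EPCAM-DT was at 0.91 ± 0.39 (adjusted p = 0.115 in the authors' deposited table) and was not called. This gene was also chosen after its values were seen.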
